A study of Mus musculus with 9 samples.

Results

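The 9 genes Serpina1a, Serpina1b, Serpina1c, Serpina1d, Serpina1e, Serpina3k, Serpina3m, Serpina3n and Serpina6 encode secreted serpins of the liver. They were chosen by symbol from a count table of 24411 genes, and all 9 passed the filter on low counts that kept 11199 genes. Poly(A) RNA was sequenced from whole livers of 9 mice on a C57BL/6 background at 3 months of age. All 9 livers carried floxed Atg7 on both alleles. The 3 livers of the group cont. had no Cre. The 3 Atg7-KO livers also carried Alb-Cre, in which the albumin promoter drives Cre in hepatocytes, so that Atg7 is deleted in those cells. The 3 Atg7-KO;p62S351A livers, called S351A livers from here on, carried Alb-Cre and, on both alleles, a p62 knock-in that weakens the binding of p62 to KEAP1. Atg7 is needed to form autophagosomes, and p62 is the autophagy receptor that accumulates without them.

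Serpins inhibit serine proteases by a suicide mechanism. The protease cuts an exposed stretch of the serpin, the reactive centre loop, and the loop then folds into the body of the serpin and drags the trapped protease with it. The sequence of the loop decides which proteases are caught. The Serpina1 genes encode forms of α1-antitrypsin, which protects tissue from neutrophil elastase, and mice carry several copies where humans have a single gene. Serpina3k and Serpina3n belong to the mouse group related to human α1-antichymotrypsin. Serpina3k encodes contrapsin and Serpina3n an inhibitor known to bind granzyme B and to rise in the acute phase response. Serpina3m is their close relative. Serpina6 encodes corticosteroid-binding globulin, a serpin that inhibits no protease and carries glucocorticoids in blood. Hepatocytes are the main source of most of these proteins, which fold in the ER and leave the cell by the secretory route.

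The 9 genes lie in 1 serpin cluster on chromosome 12 of mm10, between positions 103646630 and 104414329, a span of 768 kb in which GENCODE M21 places 27 serpin genes, 22 of them protein coding. Serpina6 comes first (103646630 to 103657212, − strand). The Serpina1 copies follow, all on the − strand, as Serpina1b (transcript from 103728156 to 103738158), Serpina1d (103763594 to 103773592), Serpina1a (103853589 to 103863562), Serpina1c (103894926 to 103904887) and Serpina1e (103946931 to 103958975). The Serpina3 genes lie on the + strand, as Serpina3k (104338486 to 104346144), Serpina3m (transcript from 104387164 to 104394257) and Serpina3n (104406729 to 104414329). The annotated gene model of Serpina1b includes a long transcript that spans Serpina1d, and that of Serpina3m includes one that begins at the first exon of Serpina3k. Each of the 9 transcripts used here had 5 exons.

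The Serpina1 copies were nearly alike in their coding sequences, with 96.3% to 98.5% of bases identical in every pair. They differed where the protein meets its target. The following stretch of 25 codons starts at the hinge of the reactive centre loop, at codon 363 of each Serpina1 transcript in GENCODE M21, and is shown because it is both the part that sets the target and a stretch of 75 bases, the length of 1 read. Capitals mark bases that differ from Serpina1a, which were 6 in Serpina1b, 10 in Serpina1c, 9 in Serpina1d and 12 in Serpina1e.
Serpina1a: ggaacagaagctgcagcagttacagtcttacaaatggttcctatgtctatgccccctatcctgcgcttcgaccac
Serpina1b: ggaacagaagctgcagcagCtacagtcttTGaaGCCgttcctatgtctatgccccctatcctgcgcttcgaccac
Serpina1c: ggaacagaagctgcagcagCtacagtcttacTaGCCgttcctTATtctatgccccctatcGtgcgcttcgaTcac
Serpina1d: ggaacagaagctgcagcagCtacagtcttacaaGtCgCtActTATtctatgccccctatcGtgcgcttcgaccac
Serpina1e: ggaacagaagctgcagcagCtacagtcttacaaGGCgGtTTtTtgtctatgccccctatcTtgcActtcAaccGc

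The Serpina3 members were less alike, with 91.1% of coding bases identical between Serpina3k and Serpina3m, 82.7% between Serpina3k and Serpina3n and 85.2% between Serpina3m and Serpina3n. In the same stretch, capitals mark bases that differ from Serpina3k, which were 22 in Serpina3m and 33 in Serpina3n. The stretch differed between every pair of these 8 genes. The corresponding stretch of Serpina6 was not located by the same search.
Serpina3k: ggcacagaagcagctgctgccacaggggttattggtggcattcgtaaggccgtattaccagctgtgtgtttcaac
Serpina3m: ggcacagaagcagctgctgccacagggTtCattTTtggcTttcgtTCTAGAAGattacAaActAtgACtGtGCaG
Serpina3n: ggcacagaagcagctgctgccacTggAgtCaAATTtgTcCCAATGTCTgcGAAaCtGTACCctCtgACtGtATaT

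Much of the remaining Serpina1 sequence does not tell the copies apart. Of all 75-base windows in the transcript used for each gene, the share found in no transcript of another gene was 30.4% for Serpina1a, 67.1% for Serpina1b, 26.4% for Serpina1c, 62.9% for Serpina1d and 79.7% for Serpina1e. It was 92.6% for Serpina3k, 90.3% for Serpina3m, 98.5% for Serpina3n and 100% for Serpina6. Serpina1a shared 62.8% of its windows with Serpina1c. The Serpina1 copies also shared windows with the pseudogene Gm8893 and, except Serpina1b and Serpina1e, with the antisense gene B430119L08Rik, which overlaps Serpina1c. The authors' counting software divides such reads between genes by estimation, and 43 of the 45 Serpina1 values in the table were not whole numbers, while all Serpina6 values were. Levels of single Serpina1 copies, Serpina1a and Serpina1c above all, are therefore uncertain in how reads were split, and the sum over the 5 copies is given beside them.

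The promoters of the Serpina1 copies shared a stretch of their own. RefSeq promoter windows for GRCm38.p6, which span the annotated start, were matched for 6 of the 9 genes, the Serpina1 copies and Serpina3n. The 5 Serpina1 windows each held the letters GTTAAT, as did 7.1% of 32851 windows in the table when both strands were searched. The 12 letters that these 5 windows share from that point on, GTTAATATTCAC, were in 5 windows of all, the Serpina1 windows they were read from. The letters TTGCNNAA, a C/EBP form, were in 4 of the 6 windows and in 10.8% of all. The STAT letters TTCNNNGAA (8.3% of all) and the antioxidant response core TGACNNNGC (12.4% of all) were in none of the 6. The following 116 bases of the − strand end at or before the RefSeq start and are shown because the 5 copies share it. Capitals mark those 12 letters, whose first base lies at −21 in Serpina1a, −26 in Serpina1b, −27 in Serpina1c, −16 in Serpina1d and −78 in Serpina1e, counted from the RefSeq start. From Serpina1a, 2 to 6 of the 116 bases differed in the other copies.
Serpina1a (chr12:103863625-103863740): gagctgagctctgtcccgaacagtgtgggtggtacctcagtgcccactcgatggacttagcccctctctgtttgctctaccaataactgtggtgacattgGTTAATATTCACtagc
Serpina1b (chr12:103738200-103738315): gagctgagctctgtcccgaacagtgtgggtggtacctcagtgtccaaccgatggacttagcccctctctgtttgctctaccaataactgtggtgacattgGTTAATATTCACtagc
Serpina1c (chr12:103904962-103905077): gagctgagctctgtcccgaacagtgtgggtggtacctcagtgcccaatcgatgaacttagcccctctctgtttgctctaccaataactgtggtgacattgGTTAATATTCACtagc
Serpina1d (chr12:103773634-103773749): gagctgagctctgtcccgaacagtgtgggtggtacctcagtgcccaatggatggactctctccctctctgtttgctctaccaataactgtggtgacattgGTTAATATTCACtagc
Serpina1e (chr12:103956960-103957075): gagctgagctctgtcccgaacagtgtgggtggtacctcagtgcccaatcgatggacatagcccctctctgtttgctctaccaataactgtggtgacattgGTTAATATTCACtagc

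The libraries held 1875314, 3554764 and 15426566 counts in cont. replicates 1 to 3, 1945469 to 3675041 in Atg7-KO and 713835 to 792366 in S351A, so depth and the p62 allele cannot be told apart. Levels are CPM, counts scaled to a common library total, after TMM scaling between libraries, and 3 counts, taken as the floor, stood for 0.269 to 3.73 CPM. Xist and 4 Y-linked genes showed that cont. held 2 males (replicates 1 and 3) and 1 female (replicate 2), while Atg7-KO and S351A each held 1 male (replicate 1) and 2 females. Atg7 was at 42.4 to 57.7 CPM in cont., at 28.0 to 30.2 in Atg7-KO and at 21.8 to 24.8 in S351A. In edgeR's quasi-likelihood test it was lower in Atg7-KO than in cont. by a log2 fold change of −0.74 (adjusted p 0.00758), and by −0.21 (adjusted p 0.829) when libraries were scaled by their totals. The table has 1 value per gene, so the deleted exons were not seen on their own. Hepatocyte markers were abundant in every library, with a summed level of 47000 to 103000 CPM in cont., 33500 to 40500 in Atg7-KO and 31700 to 45400 in S351A. In RNA of whole tissue, a loss of hepatocytes cannot be told apart from less RNA per hepatocyte.

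Setting Atg7-KO beside cont. asked what loss of autophagy in hepatocytes does to these genes. All 5 Serpina1 copies and Serpina3k fell, by 2.28-fold to 69.5-fold. Serpina3m, Serpina3n and Serpina6 were not called. Calls required an adjusted p under 0.05, over all 11199 genes, together with more than a 1.5-fold difference. So 6 of 9 were called lower, against 18.1% of all genes tested, and 0 of 9 higher, against 19.9%. Without the adjustment, 6 of the 9 had a p under 0.05, as had 47.5% of all genes. The median log2 fold change was −1.45 over the 9 genes and −0.03 over all genes tested. The 6 that fell had lower values in every Atg7-KO library than in every cont. library, which 24.9% of all genes had. These 6 calls were made again under each of 20 alternative scalings, filters, tests and left-out libraries.

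**Figure D1:**
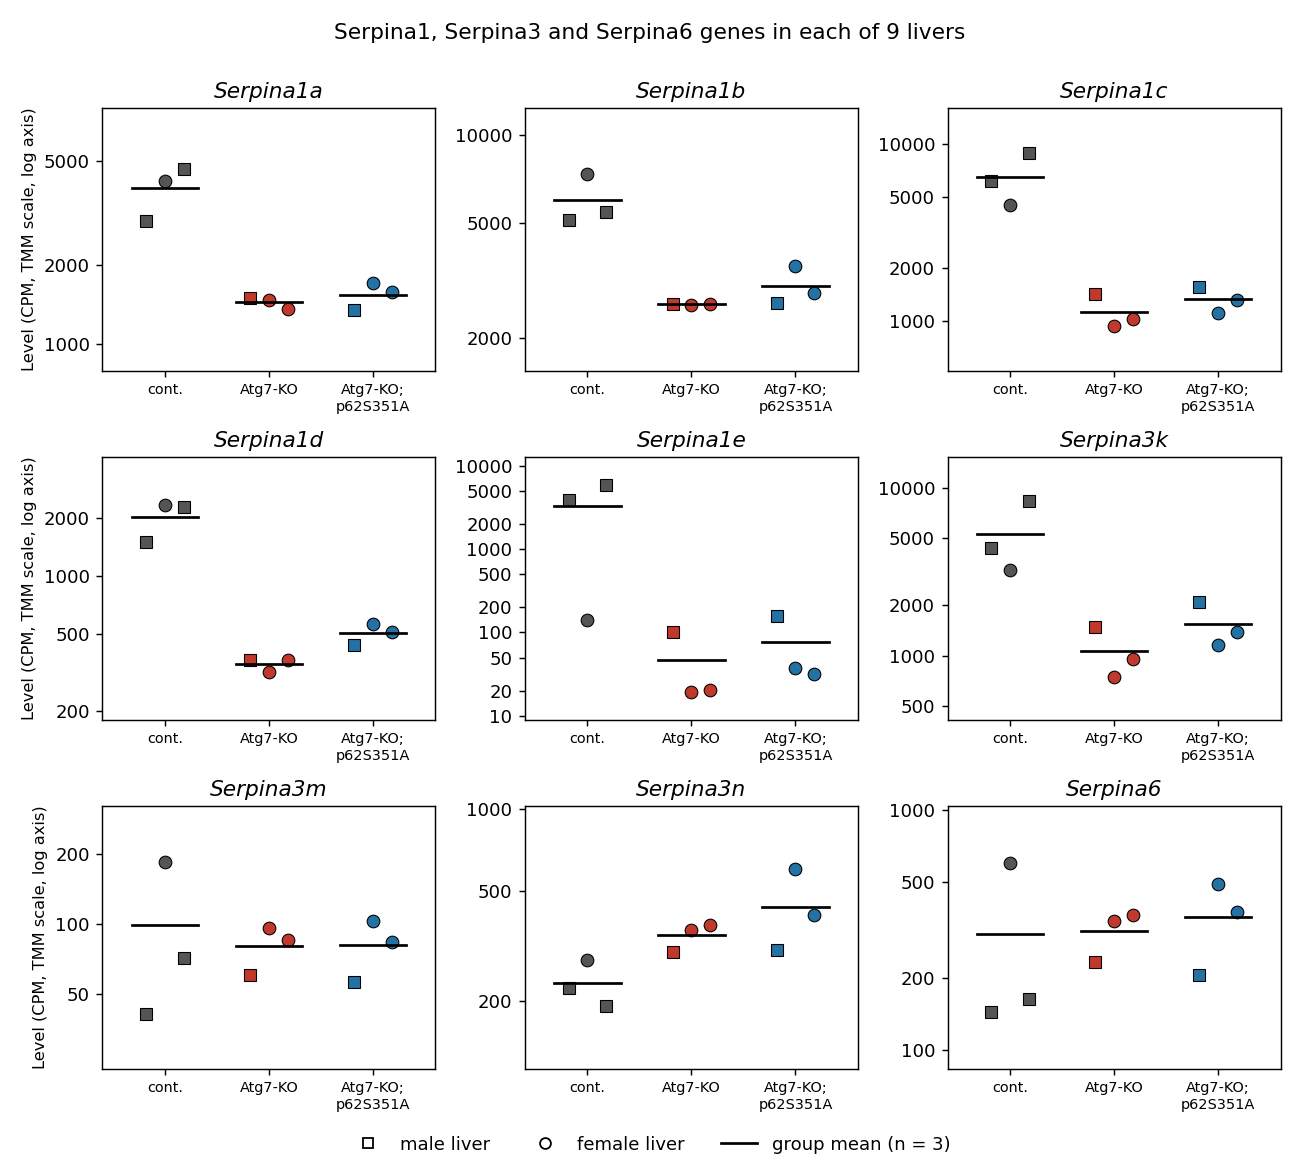
Level of each gene in each of the 9 livers (CPM with TMM scaling, log axis), with squares for male and circles for female livers and a line at the mean of each group (n = 3). The Serpina1 copies and Serpina3k lie lower in every Atg7-KO liver than in every cont. liver, while the cont. values of Serpina1e, Serpina3m and Serpina6 are split by sex.

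Among the α1-antitrypsin genes, Serpina1a was at 2941, 4186 and 4674 CPM in cont. replicates 1 to 3, at 1491, 1472 and 1360 in Atg7-KO and at 1340, 1701 and 1572 in S351A. The lowest cont. value was above the highest value of the 6 livers with Cre. The log2 fold change in Atg7-KO was −1.45 (SE 0.26, adjusted p 0.000888 in edgeR's quasi-likelihood test, as for the values below), a fall of 2.73-fold. Serpina1b was at 5118, 7358 and 5435 CPM in cont., at 2617, 2603 and 2631 in Atg7-KO and at 2637, 3559 and 2864 in S351A. Its Atg7-KO values were nearly equal, with a mean of 2617 ± 14.1 CPM (SD, n = 3), and its change of −1.19 (SE 0.26, adjusted p 0.00309) was the smallest of the 6 falls.

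Serpina1c was at 6220, 4554 and 8871 CPM in cont., at 1419, 941.8 and 1025 in Atg7-KO and at 1568, 1116 and 1311 in S351A. It was the copy with the highest mean in cont. and the third in Atg7-KO, and it fell by 5.8-fold (log2 fold change −2.54, SE 0.32, adjusted p 9.07e-05). Serpina1d was at 1495, 2317 and 2255 CPM in cont., at 367.9, 318.7 and 369.3 in Atg7-KO and at 441.2, 566.3 and 513.4 in S351A. It fell by 5.75-fold (−2.52, SE 0.26) with the smallest adjusted p of the 9 genes, 2.21e-05. Serpina1a and Serpina1c share most of their windows, so the gap between their fold changes depends on how the reads of both were divided.

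Serpina1e showed the largest fall and the widest spread. It was at 3885, 139.8 and 5970 CPM in cont., at 102.3, 19.02 and 20.59 in Atg7-KO and at 158.5, 37.25 and 32.09 in S351A. The female cont. liver was far below both male cont. livers, and in each group with Cre the male liver was above both females. The groups cont. and Atg7-KO did not overlap, by a margin of 139.8 against 102.3 CPM. The fitted change was −6.12 (SE 1.22, adjusted p 0.00193), or 69.5-fold, and ranked 15th from the lowest of 11199. It was −5.39 without cont. replicate 3 and −7.39 without Atg7-KO replicate 1, both still called. With sex as a covariate it was −4.63 (SE 0.62, adjusted p 0.000136), a fall of 24.8-fold.

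Summed over the 5 copies, the level was 19660, 18560 and 27210 CPM in cont., 5997, 5355 and 5405 in Atg7-KO and 6144, 6980 and 6293 in S351A. This sum does not depend on how reads were divided between the copies. It was 3.9-fold lower in Atg7-KO than in cont. and 3.37-fold lower in S351A than in cont. As a share of all counts, with no TMM scaling, the 5 copies made up 1.70% ± 0.247 (SD, n = 3) of the cont. libraries, 0.636% ± 0.0589 of Atg7-KO and 0.709% ± 0.0319 of S351A, which is 2.67-fold and 2.4-fold lower.

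**Figure D2:**
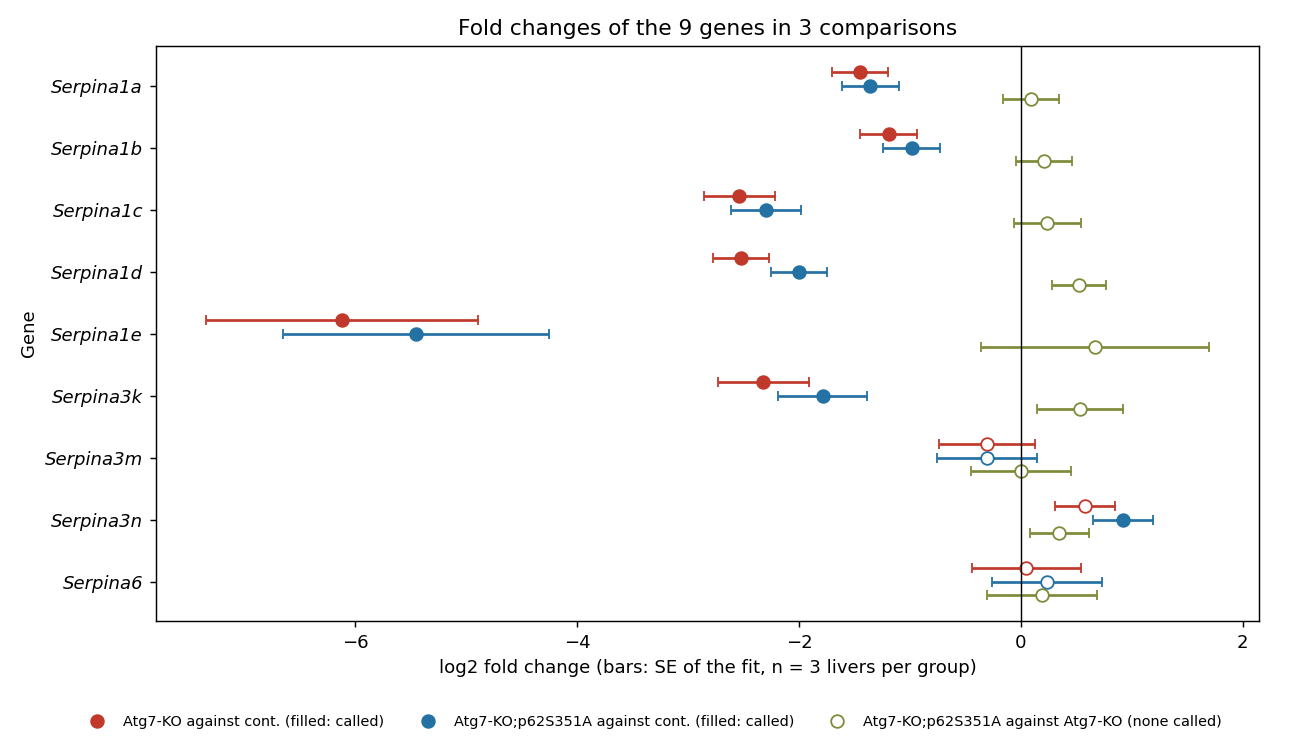
Fitted log2 fold change of each gene (horizontal axis) in the 3 comparisons, with bars of 1 SE and filled points for calls (n = 3 livers per group). Values of Atg7-KO and S351A against cont. share the cont. livers. Serpina1e lies at −6.12 and −5.45 with the widest bars, Serpina3n lies to the right of 0, and no gene is called between S351A and Atg7-KO.

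Within the Serpina3 members the direction was not shared. Serpina3k was at 4385, 3233 and 8397 CPM in cont., at 1493, 752 and 961 in Atg7-KO and at 2083, 1167 and 1392 in S351A. Every liver with Cre was below every cont. liver, and the fall in Atg7-KO was 4.99-fold (−2.32, SE 0.41, adjusted p 0.000864). Serpina3m was at 41.32, 185.9 and 71.31 CPM in cont., at 60.55, 96.19 and 86.03 in Atg7-KO and at 56.29, 103.1 and 83.92 in S351A. Its groups overlapped, and its change of −0.31 (SE 0.43, adjusted p 0.61) was 0.47 (adjusted p 0.253) without cont. replicate 2, the female. It was 0.22 when libraries were scaled by their totals, so that no direction can be given for it.

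Serpina3n was at 223.1, 281.4 and 191.2 CPM in cont., at 300.7, 360.4 and 376.1 in Atg7-KO and at 306.7, 602.3 and 409.7 in S351A. Each liver with Cre was above each cont. liver, as in 26.7% of all genes for Atg7-KO and 19.6% for S351A. The change in Atg7-KO was 0.58 (SE 0.27, adjusted p 0.109) and was not called. It was called with library totals as the scaling (1.10, adjusted p 0.00604) and when the 20 most counted genes were kept out of the library size (1.00, adjusted p 0.00927). That scaling by totals shifted the median over all genes upward by 0.54 as well. Summed markers of ductular and stellate cells were also higher in every liver with Cre, as was the neutrophil sum, which was mostly Csf3r, and their part in the level of Serpina3n was not tested.

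Serpina6, the glucocorticoid carrier, was at 143, 602.1 and 162.3 CPM in cont., at 232.2, 342.8 and 365.2 in Atg7-KO and at 204.5, 491.7 and 375.2 in S351A. The female cont. liver had the highest value of all 9 and the male cont. livers the lowest. The change in Atg7-KO was 0.05 (SE 0.49, adjusted p 0.951), and 1.02 (adjusted p 0.0381) without cont. replicate 2. It was −0.30 without cont. replicate 1, −0.26 without cont. replicate 3 and −0.08 with sex as a covariate, none of them called. In S351A against cont. it was 0.24 (adjusted p 0.757), and 1.21 (adjusted p 0.0254) without that library.

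The comparison of S351A with Atg7-KO asked whether weaker binding of KEAP1 to p62 alters these genes when autophagy is lost. None of the 9 was called higher or lower, as for 0% and 0.00893% of all genes, which was 1 gene. At an unadjusted p under 0.05 there were 0 of the 9 and 739 of all genes (6.6%), and DESeq2 and limma-voom also called 0 of the 9. Of the 9 fitted changes the median was 0.24, against 0.01 over all genes. The smallest p belonged to Serpina1d, whose 3 S351A values were all above its 3 Atg7-KO values, with a log2 fold change of 0.53 (SE 0.24, unadjusted p 0.0516, adjusted p 0.756). Serpina1b was also without overlap, with 0.21 (SE 0.25, adjusted p 0.918). Such a separation was seen upward in 7.67% and downward in 9.23% of all genes, and downward in none of the 9. For Serpina3k the change was 0.53 (SE 0.39), for Serpina3n 0.35 (SE 0.27), for Serpina1c 0.24 (SE 0.30), for Serpina1a 0.09 (SE 0.25) and for Serpina1e 0.67 (SE 1.03). The value of Serpina1e was −0.47 without S351A replicate 1 and 1.93 without Atg7-KO replicate 1, so that no direction can be given for it. A p that misses the threshold does not show that the levels were alike.

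S351A against cont. gave much the same calls as Atg7-KO against cont., and both use the same cont. livers, so they are not independent. Lower were 6 of 9, against 13% of all genes, and higher was 1 of 9, against 15.6%. At an unadjusted p under 0.05 there were 7 of the 9 and 41% of all genes. The log2 fold changes were −1.36 (adjusted p 0.00229) for Serpina1a, −0.98 (0.013) for Serpina1b, −2.30 (0.000352) for Serpina1c, −2.00 (0.000197) for Serpina1d, −5.45 (0.00539) for Serpina1e and −1.79 (0.00596) for Serpina3k, all adjusted p-values of edgeR's quasi-likelihood test. The male S351A liver, at 158.5 CPM, was above the female cont. liver for Serpina1e, so these groups overlapped, while the other 5 did not, against 18.4% of all genes. The change of Serpina1e was −3.91 with sex as a covariate (15-fold), −6.60 without S351A replicate 1 and −4.73 without cont. replicate 3, each still called. Serpina3n was the member called higher, at 0.92 (SE 0.27, adjusted p 0.0231), but not without cont. replicate 3 (0.79, adjusted p 0.0659) or without S351A replicate 2 (0.61, adjusted p 0.144). Serpina1b was not called without S351A replicate 1 (−0.91, adjusted p 0.0592) or when libraries were scaled by their totals (−0.51, adjusted p 0.13). Serpina3m, at −0.30 (adjusted p 0.655), was 0.47 (adjusted p 0.295) without cont. replicate 2.

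The share of each gene in its family is given as a description, with no test. Serpina1a made up 18.3% ± 3.91 (SD, n = 3) of the Serpina1 sum in cont., with 25.9% ± 1.42 in Atg7-KO and 23.7% ± 1.7 in S351A. Serpina1b made up 28.6% ± 10.1 (SD, n = 3) of the Serpina1 sum in cont., 47.0% ± 2.92 in Atg7-KO livers and 46.5% ± 4.14 in S351A livers. In the same order of groups, Serpina1c had 29.6% ± 4.42, 20.1% ± 3.2 and 20.8% ± 4.75, and Serpina1d had 9.47% ± 2.65, 6.31% ± 0.463 and 7.82% ± 0.552. Serpina1e made up 14.2% ± 11.7 of the sum in cont., with 0.753% in the female, and 0.815% ± 0.775 and 1.21% ± 1.19 in the groups with Cre. The S351A livers overlapped cont. in the shares of Serpina1a, Serpina1c, Serpina1d and Serpina1e, and the Atg7-KO livers did so in that of Serpina1e. Serpina3k was 92.9% ± 4.95 of the Serpina3 sum in cont., 70.1% ± 9.42 in Atg7-KO livers and 73.8% ± 11.5 in S351A livers. Serpina3n took 4.87% ± 2.7, 24.1% ± 7.08 and 22.1% ± 9.86.

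**Figure D3:**
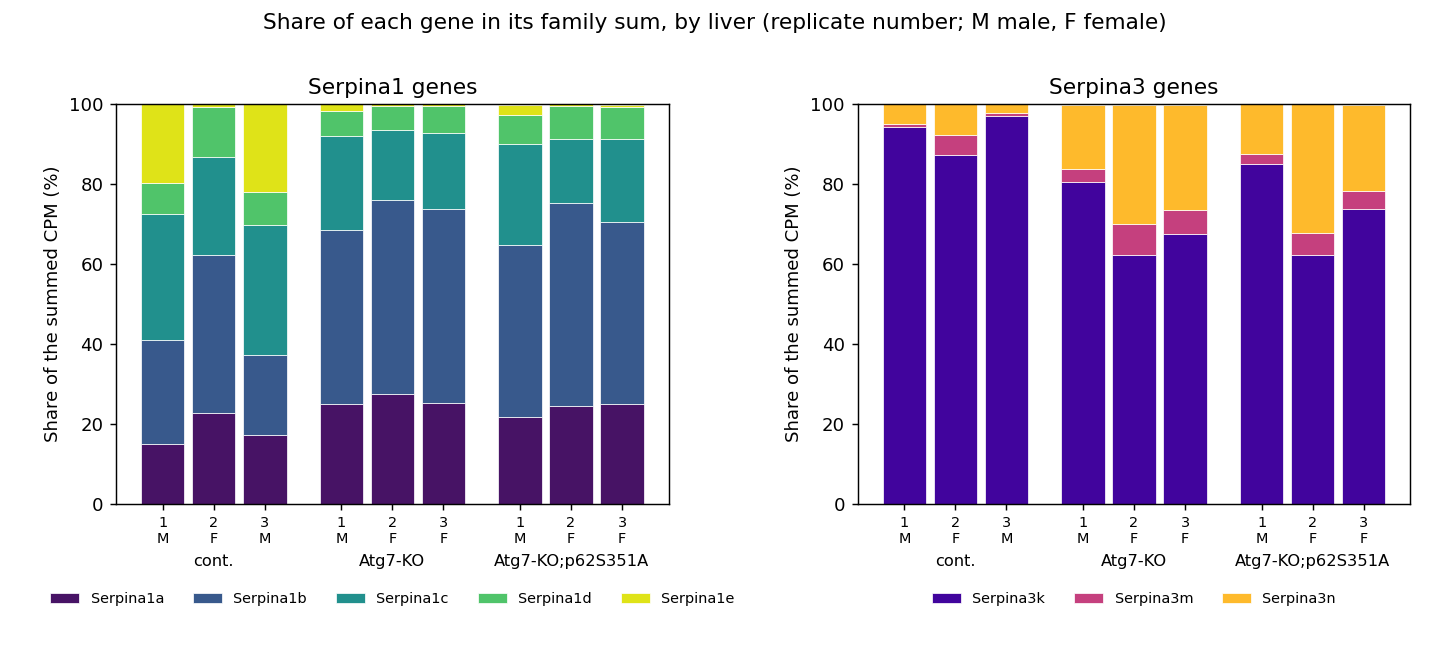
Share of each gene (%) in the summed CPM of the 5 Serpina1 copies (left) and of Serpina3k, Serpina3m and Serpina3n (right), with 1 bar per liver. The female cont. liver has a Serpina1e share of 0.753%, far below both male cont. livers, and Serpina3n takes a larger share in each liver with Cre than in any cont. liver.

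Ratios within a library do not depend on how libraries are scaled. The log2 ratio of Serpina3n to Serpina3k was −4.42 ± 0.974 (SD, n = 3) in cont. and −1.70 ± 0.72 (n = 6) in the livers with Cre, and it was above all cont. values in 6 of 6. That difference of 2.72 had an exact two-sided permutation p of 0.0238, the smallest that 3 against 6 can give. Its adjusted p was 0.0714 over the 3 ratios tested, so it did not pass. At the smallest p, 1 ratio could pass only if another ratio also had a small p. The adjusted value therefore does not show that this ratio was alike in the groups. Serpina3m to Serpina3k differed by 1.94 (exact permutation p 0.0714, adjusted p 0.0714, above all cont. values in 4 of 6 and above the cont. values of its own sex in 6 of 6). Serpina1e to Serpina1a differed by −3.67 (exact permutation p 0.0714, adjusted p 0.0714, below all cont. values in 4 of 6 and below those of its own sex in 6 of 6). The permutations did not take sex into account.

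Per kilobase of transcript, which allows genes to be compared, the order in cont. was Serpina1c (4810 ± 1600 CPM per kb, SD, n = 3), Serpina1b (4280 ± 869), Serpina1a (2890 ± 657), Serpina3k (2600 ± 1320), Serpina1e (2120 ± 1880) and Serpina1d (1450 ± 328), then Serpina6 (188 ± 162), Serpina3n (112 ± 22.2) and Serpina3m (60.0 ± 46.0). Neighbours in this order had overlapping ranges, except Serpina1b and Serpina1a (3670 to 5280 against 2160 to 3440) and Serpina1d and Serpina6 (1070 to 1660 against 89.1 to 375). In Atg7-KO the order was Serpina1b (1880 ± 10.1), Serpina1a (1060 ± 52.3), Serpina1c (829 ± 187), Serpina3k (520 ± 186), Serpina1d (253 ± 20.7), Serpina6 (195 ± 44.3), Serpina3n (168 ± 19.3), Serpina3m (48.8 ± 11.1) and Serpina1e (30.0 ± 30.2). Here the neighbours without overlap were Serpina1b and Serpina1a, Serpina3k and Serpina1d, Serpina1d and Serpina6 (229 to 265 against 145 to 228), and Serpina3n and Serpina3m. Serpina1e had the fifth place in cont. and the last in Atg7-KO, but these means pool the sexes, and in the female cont. liver it was already the lowest of the 9, at 88.8 CPM per kb. In S351A the order of the 9 genes was the same as in Atg7-KO, from Serpina1b at 2170 ± 345 to Serpina1e at 48.2 ± 45.4.

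The groups held unequal numbers of each sex. In a test of a sex term beside the group terms, added after the data were seen, Serpina1e was lower in females by 9.11-fold (log2 fold change −3.19, SE 0.49, adjusted p 0.0142 in edgeR's quasi-likelihood test). It was the 1 call among the 9 genes, lower calls making up 0.143% and higher calls 0.205% of all genes. Serpina6 was not called, at 1.23 (SE 0.24, adjusted p 0.0632), higher in females in each group. Serpina3m was at 1.04 (SE 0.24, adjusted p 0.125), Serpina3k at −0.83 (SE 0.24, adjusted p 0.297) and Serpina1c at −0.54 (SE 0.21, adjusted p 0.588). With sex in the model the 6 falls in Atg7-KO were called again, with Serpina1c at −2.34 and Serpina3k at −2.03.

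**Figure D4:**
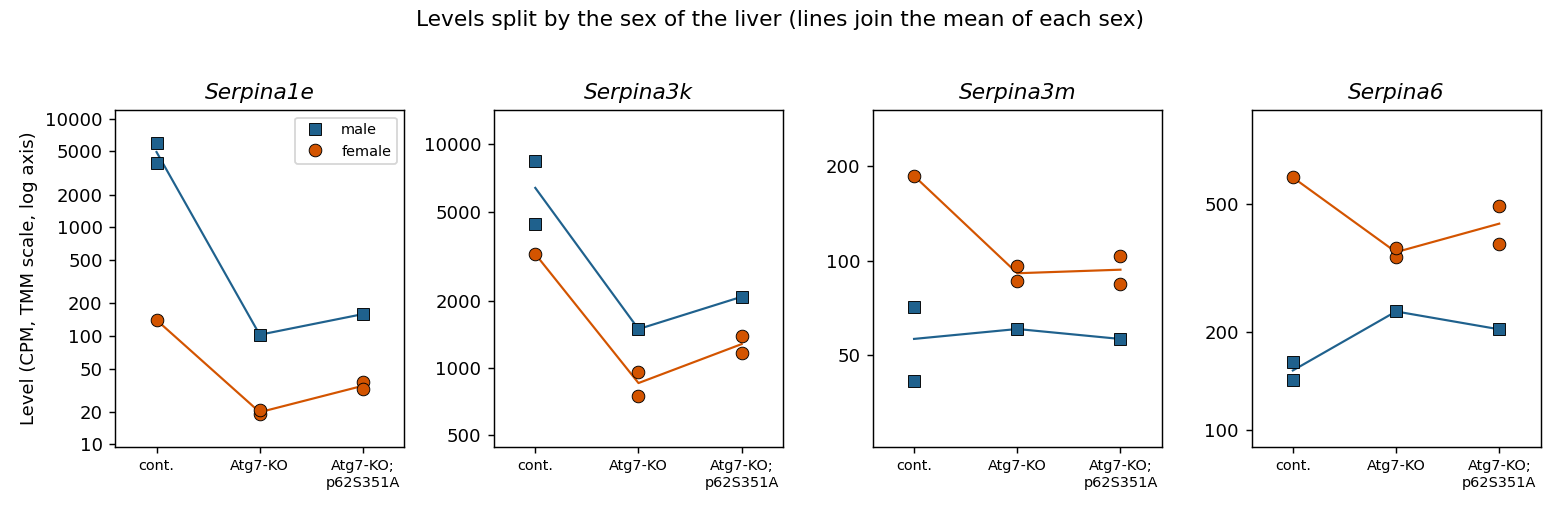
Level (CPM with TMM scaling, log axis) of the 4 genes with the largest fitted sex differences, by group, with squares for males, circles for females and lines through the mean of each sex. Males lie above females for Serpina1e and Serpina3k in each group, and below them for Serpina3m and Serpina6.

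Within males, Serpina1e went from a mean of 4928 CPM in 2 cont. livers to 102.3 in the 1 Atg7-KO liver, a log2 ratio of −5.59. Within females it went from 139.8 in the 1 cont. liver to a mean of 19.81 in 2, a log2 ratio of −2.82. The difference between the effects in the sexes, tested as an interaction added after the data were seen, was 2.77 (p 0.00123, adjusted p 0.405), and for no member did it pass the adjustment. Serpina1e stood beside genes known to differ by sex in liver. The sum of 8 male-biased genes was 7050, 286 and 20800 CPM in cont. replicates 1 to 3, 4390 in the male and 1450 and 1380 in the female Atg7-KO livers, and 8910, 1450 and 2170 in S351A. The sum of 8 female-biased genes was 23.5, 6750 and 7.79 CPM in cont., 3580, 6330 and 6670 in Atg7-KO and 1530, 3600 and 5160 in S351A. The first sum was mostly Mup20, which was not called (−1.63, adjusted p 0.28 in the edgeR test). Elovl3 (−7.49), Slco1a1 (−5.91), Cyp7b1 (−4.15), Cyp4a12a (−3.75) and Cyp2d9 (−2.74) were called lower in Atg7-KO, with groups that overlapped for Cyp4a12a and Cyp2d9. These folds, and those of the second list, come from the fit without sex, with 2 males in cont. and 1 in Atg7-KO. Of the second list the Atg7-KO sum was mostly Cyp2a4, with a mean of 5459 ± 1640 CPM (SD, n = 3) against 210 ± 346 in cont. (log2 fold change 4.70, called), while Cyp2b13 (−8.07) and Sult2a1 (−5.98) were called lower with groups that overlapped and with 0 counts in at least 1 cont. library each. The part of these genes in the level of Serpina1e was not tested.

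The pattern of each gene across the 9 livers was compared with that of 8806 genes with a mean of at least 10 CPM, by the root mean square difference of log2 CPM after the mean of each gene was removed. The nearest were Mup21 (0.714) and Slco1a1 (0.809) for Serpina1e, and these are far apart beside the nearest for the other copies. Serpina1a was nearest to Neurl4 (0.112) and Cyp2d10 (0.112), Serpina1b to Mgam (0.127) and Kng1 (0.129), Serpina1c to Ces2a (0.167) and Ghr (0.265), and Serpina1d to C8g (0.174) and Ttc36 (0.221). Serpina3k was nearest to Mn1 (0.269) and Tfpi2 (0.271), Serpina3m to Mid1 (0.232) and Lect2 (0.233), Serpina3n to H2-K1 (0.151) and Pomgnt1 (0.19), and Serpina6 to Plekhf1 (0.25) and Lpin2 (0.28). Among the 9 themselves, Serpina1a and Serpina1b were closest (0.228), followed by Serpina1c and Serpina3k (0.283) and by Serpina3m and Serpina6 (0.296).

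Other serpins did not share 1 direction. Of 7 other A-clade serpins tested, 3 rose and 2 fell in Atg7-KO, with a median log2 fold change of 0.90. Serpina7, the thyroxine-binding globulin, rose from 22.5 ± 10.3 to 146 ± 15.2 CPM (SD, n = 3; log2 fold change 2.65), and Serpina12, the adipokine vaspin, from 79.5 ± 53.7 to 193 ± 13.6 (1.28). Serpina4-ps1 fell by 5.59 on the log2 scale, from 1138 ± 1590 to 22.6 ± 37.3 CPM, with a spread above its mean in both groups, and Serpina11 fell by 1.23. Of 12 serpins of other clades, 4 rose and 3 fell, with a median of −0.45, which was 0.08 under library totals with the same counts. The intracellular inhibitors Serpinb6b (3.51), Serpinb6a (2.89) and Serpinb9 (from 5.31 ± 1.38 to 16.1 ± 2.69 CPM) rose, as did the collagen chaperone Serpinh1 (1.89).

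Target proteases of these serpins and receptors that clear them were next. Of 9 tested, 6 fell and 0 rose, with a median of −1.36. F2 and Plg are also counted among the plasma proteins below, so these lists are not separate. Proc, the anticoagulant protein C, was at −1.57, F2, which encodes prothrombin, at −1.52, Klkb1, which encodes plasma kallikrein, at −1.36 and Lrp1, the receptor that clears serpin complexes, at −1.38. The neutrophil proteases were barely detected. Elane had 0 counts in all cont. and Atg7-KO livers, Ctsg had 0 in all 9, and Prtn3 had at most 2 counts in a cont. library and 5 in an Atg7-KO library, so that none was tested.

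Of 21 regulators of serpin genes, 2 rose and 2 fell, with a median of 0.02, and 17 were not called. Osmr, a receptor for the IL-6 family, rose (1.85), while Stat5b, which carries the growth hormone signal, was at −1.05 and Foxa2 at −0.98. The hepatocyte factor genes Hnf4a (0.38, adjusted p 0.251) and Cebpb (−0.40, 0.41) were not called. Nor were Stat3 (0.46, 0.103), Il6ra (0.30, 0.74), Socs3 (−0.14, 0.776) or the glucocorticoid receptor gene Nr3c1 (−0.44, 0.112), each with its adjusted p of the edgeR test. With library totals as the scaling, 7 of the 21 rose and 0 fell, beside 38.3% and 7.15% of all genes.

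Genes for folding, export and degradation of secreted proteins in the ER fell more often than they rose. Of 29, 15 fell and 1 rose, with a median of −0.65. The chaperones Hyou1 (−1.62), Hsp90b1 (−1.48) and Hspa5 (−1.44) and the ER ubiquitin ligase Syvn1 (−1.36) had the largest falls. Edem2, a mannosidase that sends misfolded glycoproteins such as α1-antitrypsin variants for degradation, was the gene that rose (0.80). Lman1, the cargo receptor for α1-antitrypsin, was at −0.33 (adjusted p 0.311). With library totals as the scaling, 5 fell and 5 rose, beside 7.15% and 38.3% of all genes.

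**Figure D5:**
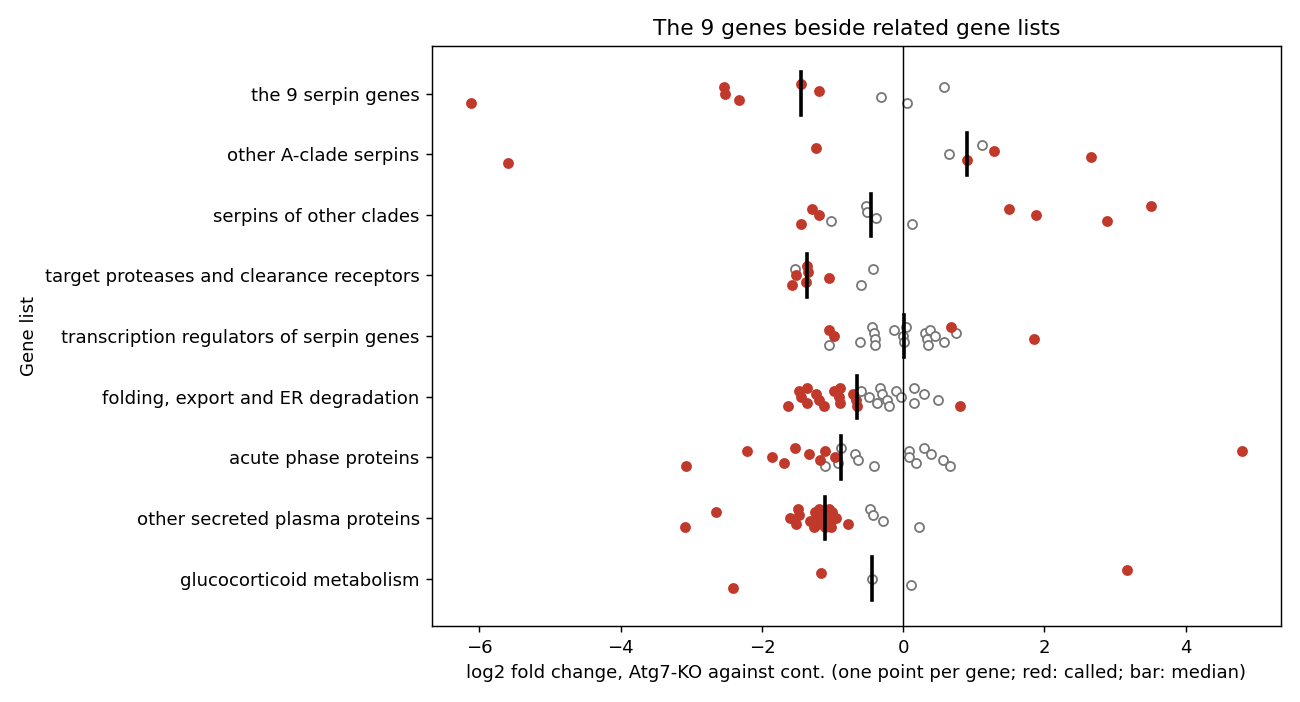
Fitted log2 fold change in Atg7-KO against cont. (horizontal axis) of the 9 serpin genes and of each tested gene of 8 lists, with red points for calls, open points for genes not called and a bar at the median. The median of the 9 genes is −1.45 and that of other secreted plasma proteins −1.10.

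With TMM scaling, the fall of the Serpina1 copies and Serpina3k stood beside falls of most of the other secreted plasma proteins listed. Of 29 other secreted plasma proteins, 25 fell and 0 rose, with a median of −1.10. Apoa2 (−3.08), the protease inhibitor Mug1 (−2.65), Vtn (−1.60) and F2 (−1.52) led them. With library totals as the scaling, where 7.15% of all genes were called lower and 38.3% higher, 10 of the 29 fell, and the 6 serpins were called lower. Of 23 acute phase proteins, 9 fell and 1 rose, with a median of −0.88, or 6 and 4 with a median of −0.34 under library totals. Lcn2 rose by 4.79, while Saa3 (−3.07), Saa4 (−2.20) and the iron hormone gene Hamp (−1.86) fell. Of 5 genes of glucocorticoid metabolism, Abcb1a rose (3.17) and Srd5a1 (−2.40) and Hsd11b1 (−1.16) fell. In S351A against cont., 20 of the 29 plasma proteins and 12 of the 29 ER genes fell, or 4 and 0 with library totals, where 4.57% of all genes were called lower. In S351A against Atg7-KO, 0 genes of all 8 lists were called by the edgeR test. Whether the 9 genes moved more than these lists was not tested.

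Ductular and stellate markers differed between cont. and the livers with Cre in their sums, while macrophage and endothelial sums overlapped. The sum of 8 ductular markers was 47.5 to 83.3 CPM in cont., 823 to 1210 in Atg7-KO and 723 to 1200 in S351A, and 5 of 5 tested were higher in Atg7-KO. Most of the Atg7-KO sum was Spp1 (mean 733 CPM) and Sox9 (230), while Krt19 was at 12.6, Epcam at 10.1 and Krt7 at 6.42. Stellate markers summed to 304 to 605, 1060 to 1500 and 1070 to 1460 CPM (5 of 8 higher), macrophage markers to 214 to 330, 293 to 382 and 262 to 290 (4 of 8 higher), and neutrophil markers to 8.06 to 10.6, 18.8 to 27.0 and 16.0 to 21.8, of which Csf3r, the 1 tested and higher, was the largest part, with Mpo and Elane at 0 in cont. and Atg7-KO. Dcn (mean 689 CPM) and Col3a1 (345) made up most of the stellate sum in Atg7-KO. Endothelial markers summed to 126 to 229, 141 to 172 and 120 to 164 CPM (1 higher and 4 lower of 8). Of 7 hepatocyte markers, 5 were lower in Atg7-KO, with a median of −1.22. Alb, Ttr, Apoa1 and Apob of these are also counted among the plasma proteins above. Markers of pancreas and other tissues summed to 28.0 to 31.7, 11.1 to 17.4 and 18.5 to 90.8 CPM. The high end in S351A was the kidney gene Umod, which had 0 to 7 counts in cont. and 4 to 61 in S351A (log2 fold change 5.43, adjusted p 0.00572, called in S351A against cont.). The part of cell composition in the serpin falls was not tested.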

How the data were processed

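Liver poly(A) RNA of 9 mice was sequenced with 75-base single-end reads. The authors trimmed reads with Trim Galore, aligned them with STAR to mm10 and quantified genes by RSEM. The authors deposited expected counts, not scaled between libraries, which were rounded here. Between 4.4% and 7.75% of values in a library were not whole numbers. The annotation and strand setting are not given in the sources used here, so B430119L08Rik and Gm8893, which have no row in the table, could share reads with Serpina1.

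The tests used edgeR 4.0.16 (R 4.3.3). Low genes were removed with filterByExpr (minimum count 10, minimum total 15), which left 11199. After TMM scaling, the quasi-likelihood fit held all 9 libraries and the groups as its only terms, and Benjamini-Hochberg adjustment ran over the 11199 genes. SE are those implied by the test. The procedure was tested on simulated data. Log2 CPM used a prior count of 2. Floors cover counting error alone, and reads lacking molecular identifiers can be copies of 1 molecule. Window sharing and coding identity were computed on GENCODE M21 transcripts with Python 3.11.15 and Biopython 1.88, permutation tests with SciPy 1.17.1. Promoter sequences are from RefSeq (GRCm38.p6).

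Groups follow the sample titles. For S351A replicates 2 and 3 another label entry names a p62 position that differs from the title. Same-numbered livers did not deviate together in every pair (r from −0.0415 to 0.306, and −0.265 to 0.212 for livers of different number), so replicate numbers were not used as pairs. Replicate 1 was male and replicate 2 female in every group, so the numbers carry sex in part. The members and gene lists were chosen with earlier results of these data known. By rule, each member was described in full, with at most 4 called genes of each list with the largest change, a mean of at least 10 CPM and no overlap between libraries, genes acting directly with a member, and the 2 nearest genes per member. Genes that this rule names but that are withheld are not reported here. The lists cover serpins, their targets, regulators, ER export, acute phase and plasma proteins, glucocorticoid metabolism and cell markers. Alternatives were RLE factors, library totals, library sizes that left out the 20 most counted genes, other filters, DESeq2 1.42.0, limma-voom (limma 3.58.1), the 6 compared libraries alone, a replicate block, sex, other thresholds, thinned counts and leaving out each library. Sex as a covariate was planned, while the tests of the sex term itself and of its interaction with group were added after the data were seen.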

Additional observations from a re-analysis of the deposited data

Results flagged for a closer look

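The female and male livers moved in opposite directions for 2 of the 9 genes, each time with every liver of 1 sex higher and every liver of the other lower. For Serpina6 the log2 ratio of means in Atg7-KO against cont. was −0.766 in females and 0.605 in males, and in S351A against cont. it was −0.474 in females and 0.422 in males. In S351A against Atg7-KO it was 0.292 in females and −0.183 in males. For Serpina1a in S351A against Atg7-KO it was 0.209 in females and −0.154 in males. Each sex holds 1 or 2 livers per group, and such opposite movement was seen in 8.16% of all genes in Atg7-KO against cont., in 15.5% in S351A against Atg7-KO and in 9.08% in S351A against cont., beside 1, 2 and 1 of the 9 genes. As an interaction in edgeR's quasi-likelihood test with 3 residual degrees of freedom, the difference for Serpina6 was −1.37 (p 0.0205, adjusted p 1) in Atg7-KO against cont., −0.89 (p 0.108, adjusted p 1) in S351A against cont. and 0.48 (p 0.377, adjusted p 1) in S351A against Atg7-KO, and that for Serpina1a was 0.36 (p 0.553, adjusted p 1). At an unadjusted p under 0.05, 445, 511 and 183 of all genes had such a difference in these comparisons. Serpina3m, not counted above, also had log2 ratios of opposite sign. They were −1.03 in females and 0.104 in males in Atg7-KO against cont., where males overlapped. In S351A against Atg7-KO they were 0.0372 in females, which overlapped, and −0.105 in males.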

How the results depend on the processing

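In Atg7-KO against cont. the 6 lower calls among the 9 genes held in each alternative, with log2 fold changes between −7.39 and −0.66. In S351A against cont. 5 to 6 were called lower, Serpina1b being the one lost. The count called higher in Atg7-KO went from 0 to 1 with library totals and without the 20 genes with most counts (Serpina3n), and ranged from 0 to 1 when each library was left out (Serpina6 without cont. replicate 2). The count called higher in S351A against cont. went from 1 to 0 with the 6 compared libraries alone and with a fold above 2, and ranged from 0 to 2 when each library was left out, with 2 without cont. replicate 2. The replicate block, which carries sex in part, left 6 lower and 0 higher calls in Atg7-KO and 6 lower and 1 higher in S351A against cont.

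Changes of sign concerned values that were not called, and the cause was not tested. For Serpina3m against cont. they were 0.219 with library totals and 0.1185 without the 20 top genes in Atg7-KO, and 0.1737 and 0.08325 in S351A. Leaving out each library gave −0.675 to 0.472 in both. For Serpina3m in S351A against Atg7-KO they were −0.04529 with library totals, −0.03523 without the 20 top genes, −0.05029 with no filter, −0.01547 with at least 10 counts in every library, −0.0165 in limma-voom, −0.03388 with the replicate block and −0.02933 with sex, and leaving out each library gave −0.201 to 0.209. Serpina6 in Atg7-KO was −0.07846 with sex, and leaving out each library gave −0.297 to 1.02 in Atg7-KO, −0.106 to 0.466 in S351A against Atg7-KO and −0.112 to 1.21 in S351A against cont. Serpina1e in S351A against Atg7-KO ranged from −0.466 to 1.93.

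As a share of all counts, the log2 ratio of the Serpina1 sum was −1.42 in Atg7-KO and −1.26 in S351A against cont., and that of the Serpina3 sum −1.36 and −0.947, smaller than with TMM since the factors differ between groups. The median share of windows held by no other gene, 79.7% at 75 bases, was 64.4% at 50 and 85.2% at 100 bases. Total library size moved the median of all genes by 0.543 in Atg7-KO and 0.49 in S351A against cont., library size without the 20 top genes by 0.433 and 0.392, and no filter by 0.115 in Atg7-KO. With all libraries thinned to the smallest total of 713835 counts, 6 of the 9 genes were called lower in Atg7-KO and in S351A against cont., and 0 between S351A and Atg7-KO.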
